A study of Mus musculus with 3 samples.

Results

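Mrc1-negative leukocytes of the mouse mitral valve were the 144 cells, of 16383 cells in all, that carried transcripts of Ptprc, the gene of the pan-leukocyte phosphatase CD45, and none of Mrc1, the gene of the macrophage mannose receptor CD206. They were selected on values of 11 genes. A cell also had to hold at least 1 of 6 entry genes (Il1b, Cytip, Slamf7, Plcb2, Kynu and Sh2d1b1) and fewer than 2 of the fibroblast genes Prrx1, Col3a1 and Dpt, where a gene was detected when its value was above 0. They made up 0.879% of cells (95% exact binomial interval 0.742 to 1.03) and 19.9% (17.0 to 23.0) of the 724 cells with Ptprc. They are compared here with 15659 cells without Ptprc and with 413 cells that had both Ptprc and Mrc1. Another 167 cells had Ptprc without Mrc1 but missed a different condition.

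The data were 1 matrix of single-cell expression values into which several libraries had been merged by the authors. Its 3 GEO samples were mitral valves of B6.129-Fbn1tm2Rmz/J mice, homozygous for the hypomorphic mgR allele of fibrillin-1 (mgR/mgR) and 12 weeks old in the paper's account of its transcriptomic experiments. The study also describes wild-type and rapamycin-treated mgR mice and a single-nucleus experiment, and no barcode of the matrix is marked with a mouse, genotype, treatment or library. The matrix was therefore treated as 1 sample, with no test and no spread between mice, and its barcodes are called cells although nuclei could not be told apart from cells. Whether it holds every cell it was made from is not known. It listed 3265 genes, of which 3244 with complete values matched the annotation, and these lie on chromosomes 1, 2 and 3 only, so that many defining leukocyte genes were not analysed here. In droplet data each transcript carries a unique molecular identifier (UMI), and a level, as used below, divides the UMIs that a group's cells held of a gene by every UMI of those cells, times 10000, and carries a 95% exact Poisson interval. All intervals cover counting error only.

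Leukocytes reach heart valves from the blood or persist there as resident cells. Myeloid cells such as monocytes, macrophages and dendritic cells take up debris, present antigen and secrete cytokines such as interleukin-1 beta, while T cells and natural killer (NK) cells are lymphocytes that signal through receptors coupled to the CD3 zeta chain. In healthy valves many resident macrophages carry CD206, and cells with CD45 but without it may be of any of these kinds.

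The Mrc1-negative leukocytes had a median of 4625 UMIs per cell (726 to 13709), against 5840 in Ptprc cells with Mrc1 and 5337 in cells without Ptprc. On the listed genes their median was 822 UMIs over 396 genes. The barcodes stood in 2 alphabetical runs, which held 99 of the 144 cells, or 0.696% (0.566 to 0.847) of the 14222 cells of the first run, and 45, or 2.08% (1.52 to 2.78) of the 2161 cells of the second. The runs are not tied to a mouse or genotype, so this difference has no direction in the design. Between the runs 11 barcodes were shared, and 0 of the 144 cells carried one of these.

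The genes that chose the cells are given as a description. Ptprc (chr1:138062861-138175708, minus strand, GRCm38) was at 20.4 UMIs per 10000 (19.4 to 21.4), with a median of 9 UMIs per cell and a range of 1 to 52, and 7 cells had a single UMI. Cytip, which encodes a partner of the cytohesins in lymphocyte adhesion, was the most frequent entry gene and was found in 90 of the 144 cells. Plcb2, a phospholipase C of blood cells, was found in 58 cells, Slamf7, a receptor of the signaling lymphocytic activation molecule (SLAM) family, in 54, and Il1b, the gene of interleukin-1 beta, in 33. Kynu, an enzyme that breaks down kynurenine, was found in 33 cells and Sh2d1b1, an adaptor of SLAM receptors, in 22. A single entry gene admitted 65 cells, 2 entry genes were found in 39, 3 in 22 and 4 or more in the rest. Where only 1 was found, it was Cytip in 29 cells, Plcb2 in 15, Slamf7 in 10, Il1b in 6, Sh2d1b1 in 3 and Kynu in 2.

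Cells near the limits of the rule are described without a test. Cells with 1 entry gene had Ptprc at 16.8 UMIs per 10000 (15.4 to 18.4) and those with 2 or more at 22.5 (21.2 to 23.9). Just outside, 119 cells had Ptprc but no Mrc1 and no entry gene, and their Ptprc was at 4.66 (4.14 to 5.24). In these 119 cells Egfl7, an endothelial gene, was at 4.302 (3.80 to 4.85) and Arhgap15, a leukocyte gene, at 5.04 (4.49 to 5.63), against 1.13 (0.906 to 1.40) and 24.1 (23.0 to 25.2) in the Mrc1-negative leukocytes. A further 10 cells had an entry gene but at least 2 fibroblast genes. On the other side of the limit on Mrc1, 44 cells with Ptprc had 1 UMI of Mrc1, with Mertk at 4.99 (4.12 to 5.98). Of the 144 cells, 31 held Egfl7 and 19 held 1 fibroblast gene. Egfl7 was thus found in 21.5% of them (15.1 to 29.1), in 18.4% of Ptprc cells with Mrc1 and in 58.8% of cells without Ptprc. Its part in the levels below was not tested, and leaving out the 31 cells kept the counts of genes within 1.5 times.

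Which genes set these cells apart from the cells without Ptprc, among which fibroblast and endothelial genes were common, was addressed first. A gene was called higher or lower when its level differed at least 2-fold and the 95% intervals did not overlap, among 2886 genes with 20 or more UMIs over both groups, the 11 genes of the rule left out. In this comparison 364 genes (12.6%) were higher and 356 (12.3%) lower in Mrc1-negative leukocytes. With the mean over cells in place of summed UMIs, and fold alone as the rule, 505 were higher and 976 lower. Since the cells were chosen by leukocyte genes, higher levels of other leukocyte genes describe the choice and are not independent support for it. All 13 compared genes of a leukocyte list were higher, with a median of 167-fold against a median of 0.900-fold over all compared genes.

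The level of Arhgap15 (chr2:43748824-44395953), a Rac GTPase-activating protein of blood cells, was 24.1 UMIs per 10000 in Mrc1-negative leukocytes and 0.0449 (0.0407 to 0.0494) in cells without Ptprc, 536-fold apart (482 to 598). With each cell thinned to 2000 UMIs it was found in 90.6% of 128 Mrc1-negative leukocytes and in 0.630% of 14439 cells without Ptprc, a group that should lack it and had the greater median depth. Spi1 (chr2:91082390-91115756), the transcription factor PU.1 of the myeloid and B lineages, was at 2.33 (1.998 to 2.69) against 0.00628, and after thinning was found in 28.9% of cells against 0.132%. Ctss, which encodes cathepsin S, a protease of antigen-presenting cells, was at 7.17 (6.59 to 7.80) against 0.0215, or 333-fold (283 to 394). Ctss was found in 103 of the 144 cells, and Spi1 in 69.

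Receptors of interleukin-18 were among the genes with the highest ratios. Il18rap (chr1:40515362-40551705), the accessory chain, had 51 UMIs in 25 Mrc1-negative leukocytes and 0 in the 15659 cells without Ptprc, at least 2042-fold higher with 3 UMIs allowed over the latter group. Il18r1, the binding chain beside it on chromosome 1, was at 1.56 (1.29 to 1.87) against 0.00206. Il2ra, the alpha chain of the interleukin-2 receptor, was at 1.001 (0.790 to 1.25) against 0.00162. These receptors mark activated lymphocytes and some myeloid cells.

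The other genes named by their ratio were Ifi209, Atp8b4, Rasgrp1, Arhgap30, Psd4, Cd48 and Ifi213. Atp8b4, which encodes a phospholipid flippase, was at 5.84 UMIs per 10000 (5.31 to 6.40) and was found in 88 of the 144 cells. Rasgrp1, an activator of Ras in lymphocytes, was at 1.196 (0.964 to 1.47), and Arhgap30, a GTPase-activating protein, at 3.08 (2.70 to 3.498) in 104 cells. Cd48, a ligand of SLAM family receptors, was at 1.13 (0.906 to 1.40) in 49 cells. All 14 genes with the highest ratios and all 8 with the lowest kept their direction within each run.

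**Figure D1:**
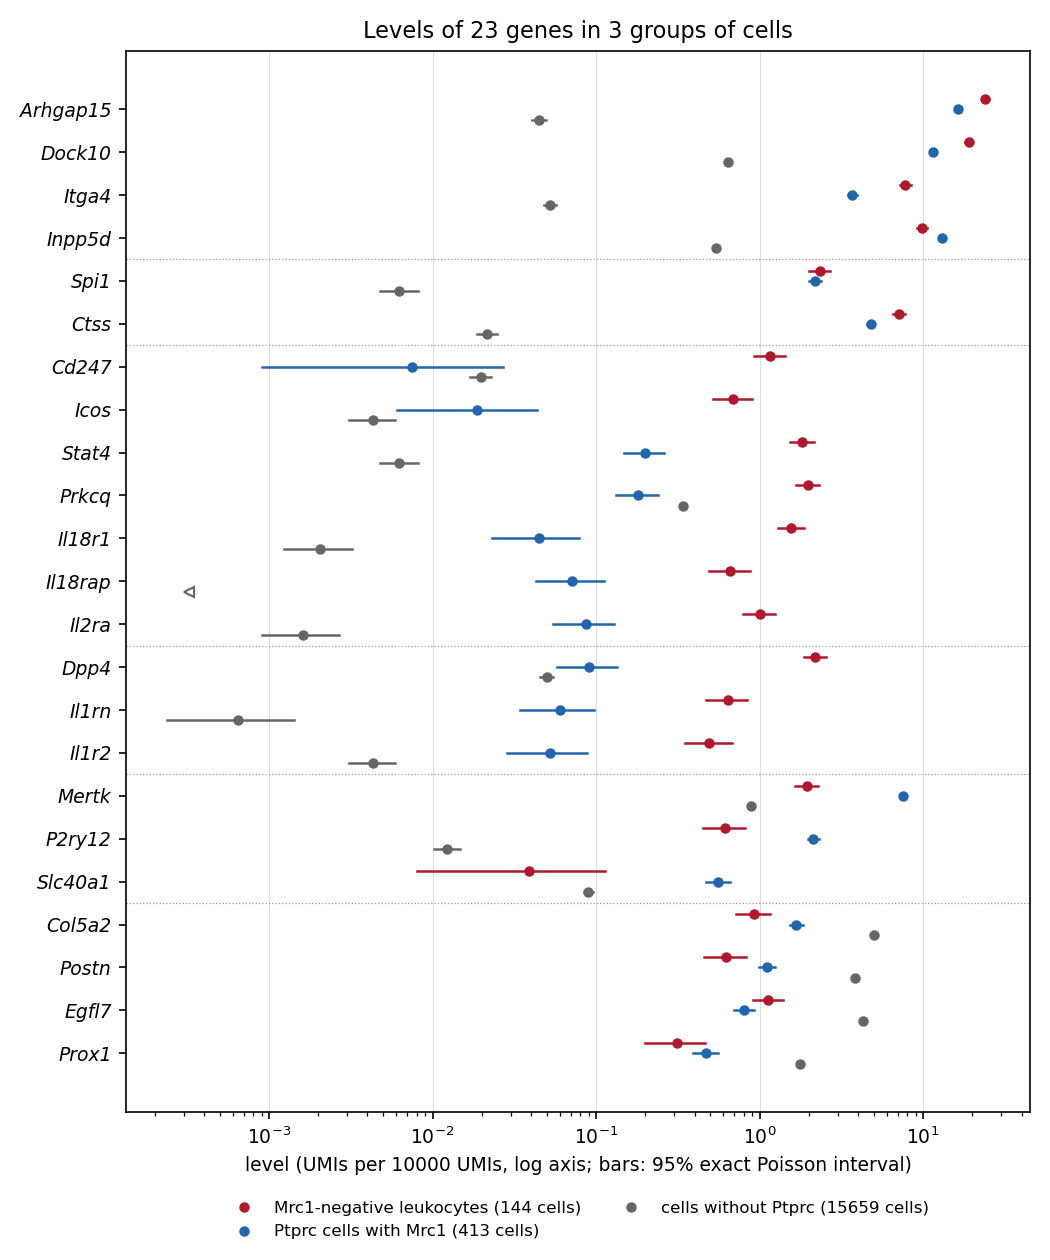
Levels of 23 genes in UMIs per 10000 UMIs (log axis) in Mrc1-negative leukocytes, Ptprc cells with Mrc1 and cells without Ptprc, with bars for 95% exact Poisson intervals and an open triangle at the level of 3 UMIs where a gene had none. Leukocyte and myeloid genes sit together in both leukocyte groups, the genes from Cd247 to Il1r2 sit highest in Mrc1-negative leukocytes, and Mertk, P2ry12 and Slc40a1 sit lower there than in Ptprc cells with Mrc1.

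Short sequences before the start site are shown for the 3 genes named by the highest ratios whose promoter holds the letters GAGGAAGT on either strand, an example of a sequence bound by PU.1. The windows run from 250 bases before to 50 after the start and are taken from RefSeq (GRCm38.p6), in lower case with the motif in capitals.
Il18rap: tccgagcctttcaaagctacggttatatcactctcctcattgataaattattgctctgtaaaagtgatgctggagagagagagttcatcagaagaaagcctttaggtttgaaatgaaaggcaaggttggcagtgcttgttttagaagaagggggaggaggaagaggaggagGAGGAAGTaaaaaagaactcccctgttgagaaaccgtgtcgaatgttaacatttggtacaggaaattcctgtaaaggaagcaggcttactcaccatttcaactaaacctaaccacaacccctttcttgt
Ctss: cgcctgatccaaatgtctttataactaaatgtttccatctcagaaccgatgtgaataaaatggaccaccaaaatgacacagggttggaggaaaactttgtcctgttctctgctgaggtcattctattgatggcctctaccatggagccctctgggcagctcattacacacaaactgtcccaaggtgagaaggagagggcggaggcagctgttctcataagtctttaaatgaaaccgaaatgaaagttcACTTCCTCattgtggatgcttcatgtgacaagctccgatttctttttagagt
Atp8b4: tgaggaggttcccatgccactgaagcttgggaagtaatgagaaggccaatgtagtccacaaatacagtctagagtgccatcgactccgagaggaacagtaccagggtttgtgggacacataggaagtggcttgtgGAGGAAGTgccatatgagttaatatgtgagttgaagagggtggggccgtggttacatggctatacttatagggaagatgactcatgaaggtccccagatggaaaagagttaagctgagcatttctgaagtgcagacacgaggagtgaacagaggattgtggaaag
The window of Il18rap lies at chr1:40515112-40515411 on the plus strand, that of Ctss at chr3:95526536-95526835 on the plus strand and that of Atp8b4 at chr2:126491504-126491803 on the minus strand. For Atp8b4 the start is one given by RefSeq. It lies inside the gene as GENCODE places it (chr2:126320973-126500674), away from the GENCODE start. In Ctss the letters stand as ACTTCCTC, the same motif on the other strand, and span the start site, while in Il18rap they begin 79 bases and in Atp8b4 115 bases before it. The motif was found in 15 of the 288 genes higher in Mrc1-negative leukocytes that have a window in the table, or 5.21% (2.94 to 8.45). It was found in 9 of 272 genes that were lower (3.31%, 1.52 to 6.19), and in 169 of 5315 windows of chromosomes 1 to 3 (3.18%). The intervals overlap, and a match is only a description of the letters.

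Fc receptors bind antibody on myeloid cells. Fcer1g, the signaling adaptor, and Fcgr1, Fcgr2b, Fcgr3 and Fcgr4 were all 5 higher than in cells without Ptprc. Fcgr2b, the inhibitory receptor, was at 2.43 (2.095 to 2.81) against 0.0456, and Fcer1g at 1.43 (1.18 to 1.72) against 0.0162. All 8 compared SLAM family genes were higher as well, among them Cd84, at 2.96 (2.59 to 3.37), and Cd244a, the receptor of Cd48, at 2.40 (2.07 to 2.78). Of 20 compared interferon-response genes 18 were higher and 0 lower, with a median of 15.3-fold. They included Aim2, a sensor of cytosolic DNA, at 1.95 (1.65 to 2.29) against 0.0572. Against Ptprc cells with Mrc1, the Fc receptor list stood at a summed level of 5.65 against 5.80, with 1 of 6 genes higher and 0 lower. The higher gene was Fcrl1, which is also on the B cell list, and the 5 named above passed in neither direction. Of 8 SLAM family genes 4 were higher and 0 lower than in those cells, at a summed 8.21 against 5.79.

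The rule had removed cells with 2 or more of 3 fibroblast genes, and 3479 of the cells without Ptprc held 2 or more, so that lower levels of other fibroblast genes describe the choice as well. Of 10 compared fibroblast genes 8 were lower and 0 higher, with a median of 0.257-fold. Col5a2, a chain of collagen V, was at 0.923 (0.721 to 1.16) against 5.02, Postn, the matricellular protein periostin, at 0.624 (0.460 to 0.827) against 3.85, and Fbn1, the gene reduced in mgR mice, at 0.507 (0.360 to 0.693) against 2.88. Prg4, which encodes lubricin, was at 1.03 (0.813 to 1.28) against 4.8. Of 11 endothelial genes 6 were lower and 1 higher. Prox1, a valve and lymphatic endothelial factor, was at 0.312 (0.1999 to 0.464) against 1.76. The higher gene was Fabp4, a fatty acid binding protein, with 50 of its 61 UMIs in 1 cell. The 8 genes with the lowest ratios, among them Pi15, Rgs7, Cdh4, Ccn5, Arhgef26, Rp1 and Lonrf2, had 0 UMIs in the 144 cells. Pi15, a peptidase inhibitor, was at 0.349 in cells without Ptprc, so that it was at least 8.95-fold lower in Mrc1-negative leukocytes with 3 UMIs allowed over them. Lonrf2 was at 0.114 and at least 2.92-fold lower.

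How Mrc1-negative leukocytes differ from the leukocytes with Mrc1 was the next question. Of 1919 compared genes, 124 (6.46%) were higher and 98 (5.11%) lower in Mrc1-negative leukocytes. General leukocyte genes differed little. Of the 13 on the list only Itga4 passed the rule, with a median of 1.18-fold against 1.02-fold over all compared genes. Itga4 (chr2:79255426-79333123), the alpha chain of the integrin VLA-4 by which leukocytes leave the blood, was at 7.80 UMIs per 10000 (7.19 to 8.45) against 3.68 (3.46 to 3.92), or 2.12-fold (1.91 to 2.35). Spi1 was at 2.33 against 2.19 and Cd48 at 1.13 against 1.09, each with overlapping intervals. The interferon-response genes also stood at like levels, with 20 of 21 within the limits and a summed level of 37.4 against 32.4. The exception was Ifi205, at 0.663 (0.494 to 0.872) against 0.0787, from 10 cells.

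T and NK cell genes gave the highest ratios. Of the 21 listed genes of that list 14 were compared, and all 14 were higher in Mrc1-negative leukocytes, with a median of 10.2-fold. The summed level of the list was 16.3 UMIs per 10000 against 2.25. Genes rare in Ptprc cells with Mrc1, such as Cd247, Icos and Il18r1, reached the UMIs required for a comparison only through Mrc1-negative leukocytes. Their direction was thus fixed by that requirement, while Prkcq and Stat4 reached it in Ptprc cells with Mrc1 alone. Cd247 (chr1:165788681-165877277), which encodes the CD3 zeta chain of the T cell receptor complex, had 89 UMIs in 23 of 144 cells and 2 UMIs in 1 of 413 Ptprc cells with Mrc1, a level of 1.16 (0.929 to 1.42) against 0.00749. Its level in the first and the second run was 0.993 and 1.45. Icos, a costimulatory receptor of activated T cells, was at 0.689 (0.516 to 0.901) against 0.0187, from 15 cells. Cd28, a related receptor of the same cluster on chromosome 1, had 21 UMIs in 8 cells against 2 UMIs in 1 cell. Il18r1 was at 1.56 against 0.0450, or 34.7-fold (19.1 to 69.0), and Il2ra at 1.001 against 0.0862, or 11.6-fold (7.21 to 19.4).

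Signaling genes of the same list followed. Prkcq (chr2:11172108-11301222), protein kinase C theta of the T cell synapse, was at 1.98 (1.67 to 2.32) against 0.180 (0.133 to 0.239), or 11.0-fold (7.89 to 15.5). Stat4, which carries the interleukin-12 signal, was at 1.82 (1.53 to 2.15) against 0.199. Zap70, the kinase that binds the zeta chain, had 19 UMIs in 15 Mrc1-negative leukocytes and 0 in the Ptprc cells with Mrc1, which was 1 UMI short of the number required for a comparison. After thinning, Cd247 was found in 14.1% of Mrc1-negative leukocytes and 0 of 394 Ptprc cells with Mrc1, and Prkcq in 18.0% and 2.28%. Each of these genes was thus found in a minority of the class.

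Dendritic cell genes formed a second group. Of 10 listed 7 were compared, and 6 were higher and 0 lower, with a median of 4.31-fold. Ly75 reached the UMIs required for a comparison only through Mrc1-negative leukocytes, so its place in the count was fixed by that requirement. Dpp4, Kmo and Ifi205 reached it in Ptprc cells with Mrc1 alone. Dpp4, the peptidase CD26 of T cells and some dendritic cells, was at 2.18 (1.87 to 2.54) against 0.0899, or 24.3-fold (15.8 to 39.0), from 39 cells. Zbtb46, a transcription factor of classical dendritic cells that endothelial cells also express, was at 2.20 (1.88 to 2.55) against 0.581 in Ptprc cells with Mrc1 and 1.92 in cells without Ptprc. Kmo, an enzyme of the kynurenine pathway, was at 1.196 (0.964 to 1.47) against 0.277, and Ly75, the endocytic receptor DEC-205, at 0.390 (0.263 to 0.557) against 0.0112. Other genes named as higher were Adam23, Fam102a, S100a11, with 36 of its 77 UMIs in 1 cell, and Ap1s3. Adam23, a disintegrin without protease activity, was at 1.72 (1.44 to 2.03) against 0.0525. It was at 2.65 against 0.0496 in the first run but at 0.0363 against 0.0612 in the second, so that its direction rested on the first run.

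Of 16 compared macrophage genes, 0 passed the rule as higher and 4 as lower than in Ptprc cells with Mrc1. Since Mrc1 is itself a macrophage gene, lower levels here describe the choice as well. Mertk (chr2:128698956-128802894), the receptor by which macrophages engulf dying cells, was at 1.94 (1.64 to 2.27) against 7.52 (7.20 to 7.86). Slc40a1, the iron exporter ferroportin, was at 0.0390 (0.00804 to 0.114) against 0.558, with all 3 UMIs in 1 cell. P2ry12, a purine receptor, was at 0.611 (0.449 to 0.812) against 2.14. The 12 that passed in neither direction included Ctss, at 7.17 (6.59 to 7.80) against 4.77 (4.52 to 5.04), which was 1.503-fold higher with intervals apart, Sirpa, at 2.13 (1.82 to 2.48) against 2.67, and Fcgr1, at 0.338 (0.221 to 0.495) against 0.465. Genes named as lower from all compared genes were Tlr5, a receptor of flagellin, Fcrls, a macrophage and microglia receptor, Npl, Pamr1, Epb41l1, Scn7a, Slc40a1 and Adam33. Fcrls was at 0.0390 (0.00804 to 0.114) against 1.62 (3 UMIs against 432), and Tlr5 at 0.0130 (0.000329 to 0.0724) against 0.566 (1 UMI against 151). All 8 kept their direction within both runs. Ptprc cells with Mrc1 had not been filtered on fibroblast genes as the class had, and with those of 2 or more such genes left out 70 genes were lower in place of 98, of which 66 were shared. Pamr1 then had 1 UMI against 13 in place of 65, and Scn7a 1 against 16 in place of 54.

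**Figure D2:**
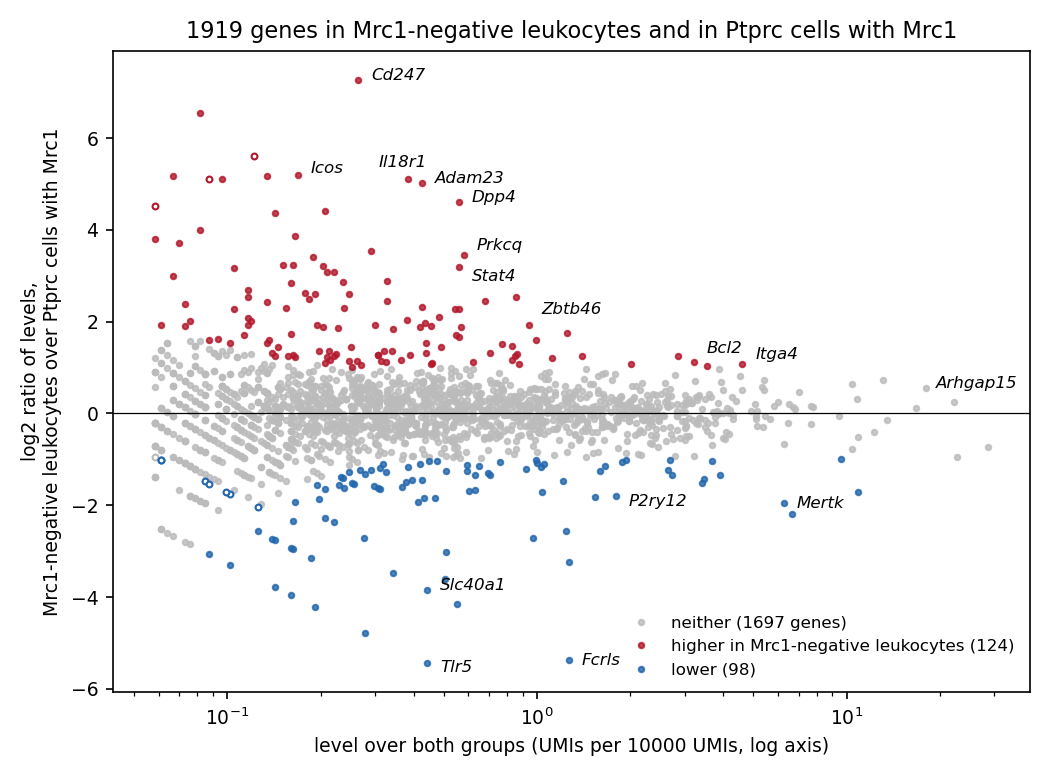
Log2 ratio of the level in Mrc1-negative leukocytes over that in Ptprc cells with Mrc1 against the level over both groups (UMIs per 10000 UMIs, log axis), 1 point for each of 1919 genes, with open points where 1 group had 0 UMIs and was set to 3. The 124 higher genes include Cd247, Icos, Il18r1, Adam23 and Dpp4 and the 98 lower ones include Tlr5, Fcrls, Slc40a1 and Mertk, while most points lie near 0.

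Whether T and NK genes and myeloid genes stood in the same cells was then examined cell by cell. The 6 T and NK genes counted were Cd28, Cd247, Zap70, Icos, Stat4 and Il18rap, and the 5 myeloid genes included Spi1, Fcer1g and Ctss, all chosen after their values had been seen. At least 2 of the former were found in 33 of the 144 cells, or 22.9% (16.3 to 30.7), and at least 2 of the latter in 97, or 67.4% (59.1 to 74.9). Only 5 cells, or 3.47% (1.14 to 7.92), reached 2 of both, with a median of 9182 UMIs. In each of the 5 the 2 T and NK genes were Stat4 and Il18rap. Stat4 was also found in 11 and Il18rap in 10 of the 92 other cells with 2 or more myeloid genes. Doublets were not called here. A further 19 cells reached 2 of neither, with a median of 2007 UMIs. All 20 cells with 3 or more T and NK genes had at most 1 myeloid gene. Among Ptprc cells with Mrc1, 2 of 413 (0.484%, 0.0587 to 1.74) had 2 or more T and NK genes and 367 (88.9%) had 2 or more myeloid genes. Among cells without Ptprc the numbers were 3 and 29 of 15659.

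The count depends on depth, so it was repeated with each cell thinned to 2000 UMIs. Of the 128 Mrc1-negative leukocytes deep enough, 21 (16.4%, 10.5 to 24.0) then had 2 or more T and NK genes, 67 (52.3%, 43.3 to 61.2) had 2 or more myeloid genes and 0 had both, which allows a share of up to 2.84% by the exact interval. In 394 Ptprc cells with Mrc1 the first share was 0.254% (0.00643 to 1.41). The entry genes chose the cells, so their values by kind are a description only. Of the 33 cells with Il1b, 31 had 2 or more myeloid genes and 2 had 2 or more T and NK genes, while of the 90 with Cytip the numbers were 59 and 25. Of the 22 with Sh2d1b1 they were 21 and 2. Both runs held both kinds, with 19 of the 33 cells in the first and 14 in the second, and 69 and 28 of the 97. The class held cells of both kinds and is therefore called by its rule rather than by a cell type.

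**Figure D3:**
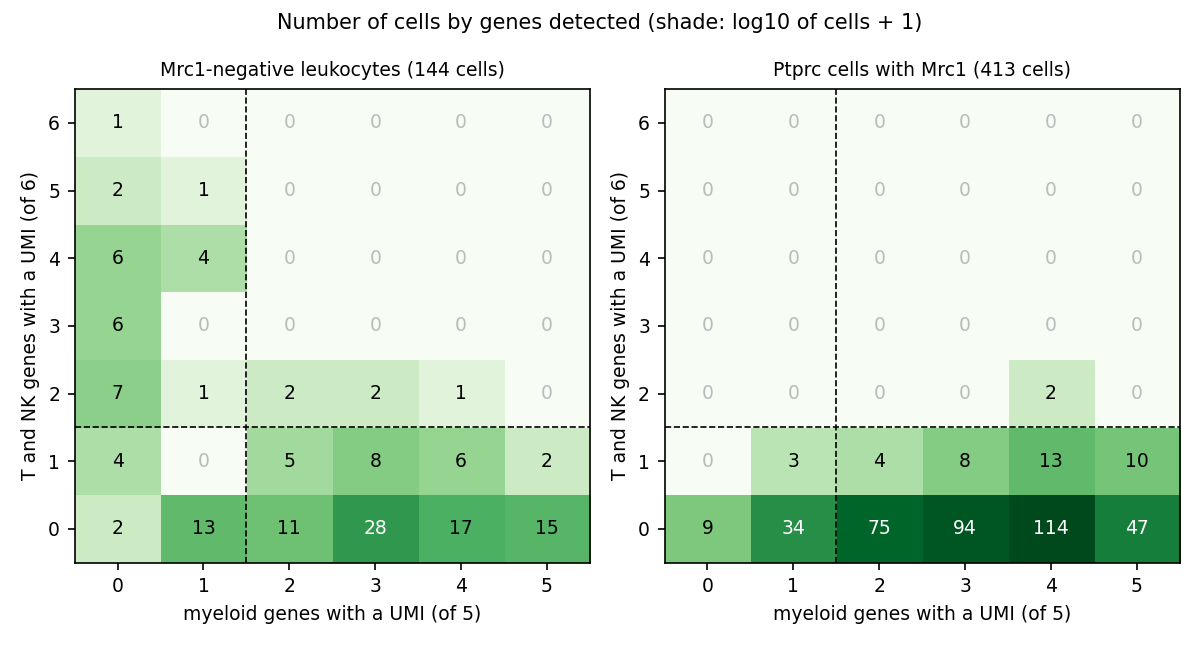
Number of cells by how many of 5 myeloid genes (x axis) and 6 T and NK genes (y axis) had a UMI, for the 144 Mrc1-negative leukocytes and the 413 Ptprc cells with Mrc1, with dashed lines at 2 genes. The Mrc1-negative leukocytes fall along both axes with 5 cells above both lines, and the Ptprc cells with Mrc1 lie along the lower edge.

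Levels were compared between the 28 cells with 2 or more T and NK genes and fewer than 2 myeloid genes and the 92 cells of the opposite kind. The 28 cells had a median of 3739.5 UMIs and the 92 cells of 5166.5. Both were picked by T and NK genes and myeloid genes. Differences in other such genes, here and below, therefore describe the split and are not independent support for it. Of 1097 compared genes 81 (7.38%) were higher and 141 (12.9%) lower in the 28 cells, with the genes of the rule and of the split left out. Prkcq was at 10.4 UMIs per 10000 (8.72 to 12.2) against 0.0941 (0.0306 to 0.220) and was found in 25 of 28 cells against 2 of 92. Tnik, a kinase of T cells and of Wnt signaling, was at 9.12 (7.60 to 10.9) against 0.151, from 26 of 28 cells. Gata3, the transcription factor of type 2 helper T cells and related innate lymphocytes, was at 1.81 (1.17 to 2.67) against 0.0188, but 15 of its 25 UMIs were in 1 cell. Eya2 and Lax1, a membrane adaptor of lymphocytes, had 26 and 22 UMIs against 0, and Hsd11b1, Nebl, Tmem163, Fam102a and Kcnq5 followed. Olfr1259, an olfactory receptor gene, had 20 UMIs in 6 of the 28 cells and 0 UMIs in the 92.

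Genes outside the list differed between the cells as well, again as a description of the split. Bcl2, which protects lymphocytes from death, was at 16.7 in the 28 cells and at 3.13 in the 92, and Zeb2, a factor of myeloid and effector cells, at 2.61 and 16.8. Itga4 was at 14.5 (12.5 to 16.6) in the 28 cells, 6.46 (5.79 to 7.18) in the 92 and 3.68 in Ptprc cells with Mrc1, so that each of these groups lay apart from the next. Arhgap15 held the same order, at 34.2, 22.1 and 16.3. Dpp4 did not separate the kinds, at 1.38 (0.828 to 2.15) and 2.30 (1.91 to 2.74).

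In the 92 cells of the myeloid kind, receptors and enzymes of phagocytes were found that had 0 UMIs in the 28 cells. Fcgr2b was at 3.05 (2.599 to 3.56), Sirpa, the receptor of the signal CD47, at 2.79 (2.36 to 3.27) and Cebpb, a factor of inflammatory myeloid cells, at 1.70 (1.36 to 2.08). For Fcgr2b this was at least 14.1-fold above 3 UMIs over the 28 cells. The intervals of Fcgr2b and Sirpa overlapped those of Ptprc cells with Mrc1, which were at 2.41 and 2.67, while Cebpb was at 0.364 there. Of the 90 UMIs of Cebpb in the 92 cells 35 were in 1 cell, and in the first run Cebpb was at 0.1215 in the class against 0.2085 in Ptprc cells with Mrc1. Mertk, at 2.35 (1.96 to 2.804), and P2ry12, at 0.753 (0.538 to 1.03), stayed below the 7.52 and 2.14 of Ptprc cells with Mrc1 among these 92 cells too. Adam23 was at 1.56 (1.25 to 1.94) in 18 of the 92 cells and at 0 in the 28. Kmo was at 1.24 (0.961 to 1.58) in 17 cells, Zbtb46 at 2.32 (1.93 to 2.76) in 34 and Ifi205 at 0.847 in 9.

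With the 33 cells of 2 or more T and NK genes left out of the class, 91 genes were higher and 101 lower than in Ptprc cells with Mrc1. Icos then had 0 UMIs against 5, which follows from the choice, since it was among the genes that picked the cells left out. Prkcq, which was not among them, had 8 against 48, a log2 ratio of -0.33. Neither was higher any more.

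**Figure D4:**
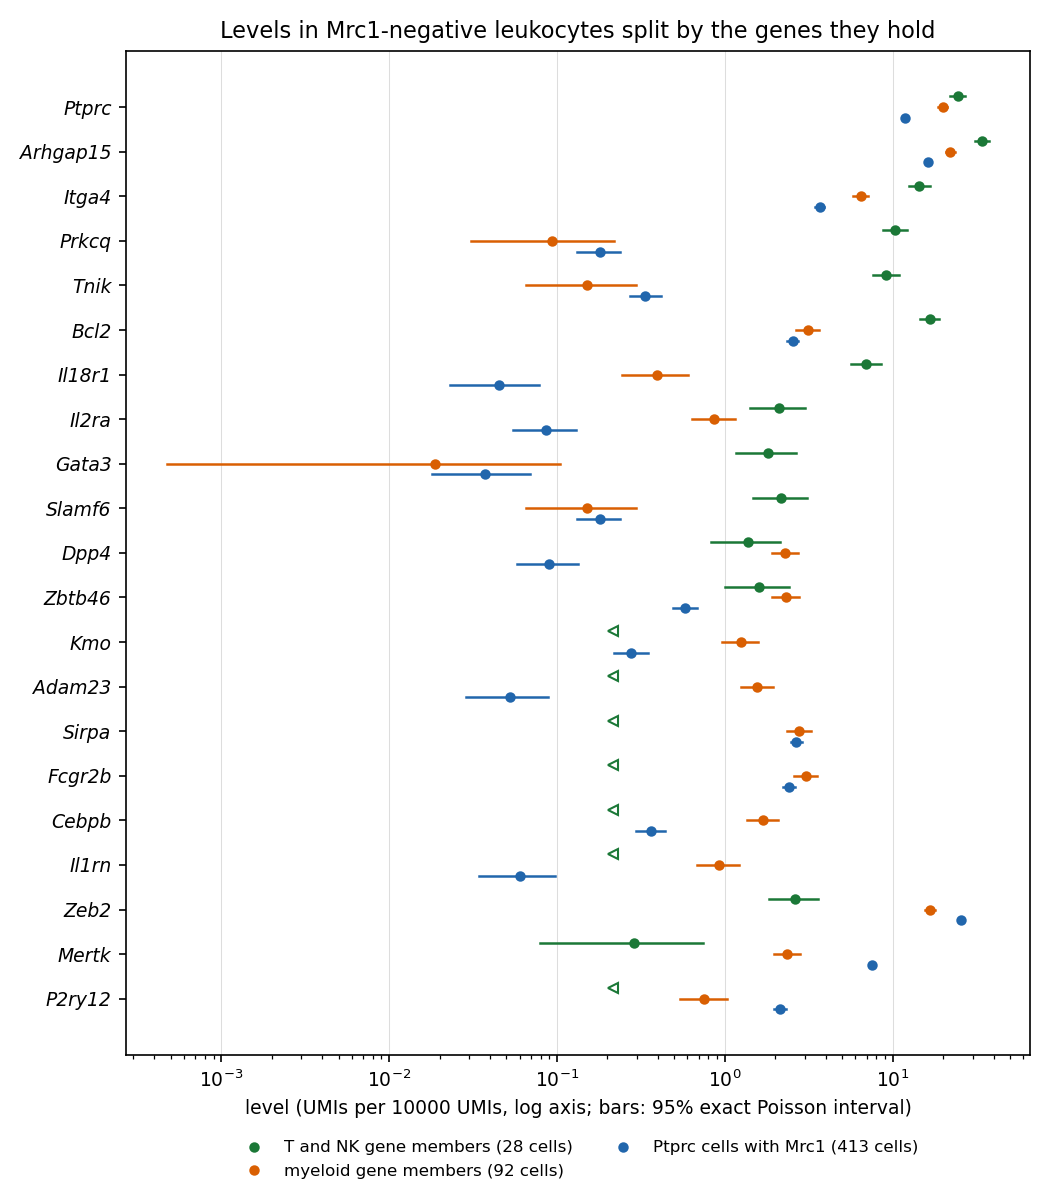
Levels of 21 genes (UMIs per 10000 UMIs, log axis) in the 28 cells with T and NK genes, the 92 cells with myeloid genes and the 413 Ptprc cells with Mrc1, with 95% exact Poisson intervals and open triangles at 3 UMIs where a gene had none. Prkcq, Tnik and Bcl2 sit highest in the first, Kmo, Adam23, Cebpb and Il1rn in the second, and Mertk and P2ry12 in the third.

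Lists of other cell types were looked at as a whole. The summed level of 10 fibroblast genes was 3.69 UMIs per 10000 against 18.3 in cells without Ptprc and 6.65 in Ptprc cells with Mrc1, and that of 11 endothelial genes 6.15 against 12.1 and 3.13. Of the endothelial sum, 153 UMIs were of Fn1, fibronectin, in the cells with Il1b of the second run, with 93 in 1 cell. The paper names Fn1 as a ligand of macrophages. Another 61 UMIs were of Fabp4, 50 of them in 1 cell. These were the only 2 of 9 compared endothelial genes higher than in Ptprc cells with Mrc1. The part of these genes in the other differences was not tested. Of the neutrophil list, S100a8, S100a9, Cxcr2 and Mmp9 had 0 UMIs in the 144 cells, each of which allows up to 0.0390 UMIs per 10000 at 3 UMIs. Il1r2, of the same list, was higher than in Ptprc cells with Mrc1, from 10 cells. Of the B cell list, Fcrl1 had 16 UMIs in 9 cells, a level of 0.208 (0.119 to 0.338) against 0.0262, and Fcmr had 0 UMIs. Cpa3 of mast cells had 0 UMIs, while Il1rl1, the interleukin-33 receptor of mast cells and type 2 lymphocytes, was at 0.611 (0.449 to 0.812) against 0.236 in Ptprc cells with Mrc1, from 16 cells. Rgs5 and Des of mural cells had 0 UMIs. Of 6 cardiomyocyte genes 1 was lower and 1 higher than in cells without Ptprc, and Tnnt2 had 1 UMI. Of 3 melanocyte genes 2 were lower.

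The counts in the following lists are to be read against 12.6% of all compared genes higher and 12.3% lower than in cells without Ptprc, and 6.46% and 5.11% against Ptprc cells with Mrc1. Among genes of division, 6 of 14 were higher than in cells without Ptprc and 0 lower, each from at most 6 cells. Against Ptprc cells with Mrc1, 0 of 10 were higher and 3 lower (Cenpf, Aspm and Bub1b). Cenpf, a kinetochore gene, was at 0.156 (0.0806 to 0.272) against 0.375. Of 13 genes of the phosphoinositide 3-kinase and mTOR pathway 4 were higher and 1 lower than in cells without Ptprc. Inpp5d, the phosphatase SHIP1 that opposes this kinase in leukocytes, was at 9.87 (9.18 to 10.6) against 0.540, and Prex1, a Rac activator, at 3.55 (3.14 to 3.995) against 0.360. Tsc1, an inhibitor of mTOR, was at 0.494 (0.350 to 0.678) against 0.547, with overlapping intervals. Of 7 genes of lipid mediator synthesis 1 was higher and 3 lower, with Ptgs2, the inducible cyclooxygenase, at 1 UMI in the 144 cells. Of 15 genes of the NF-kB pathway and survival 8 were higher and 0 lower, and of 13 adhesion and migration genes 5 were higher and 5 lower, the latter including the endothelial selectins Sele and Selp. Against Ptprc cells with Mrc1, 2 of the 13 kinase and mTOR genes were higher and 0 lower, at a summed level of 31.4 against 31.9. Inpp5d and Prex1 passed in neither direction there. Of the 15 NF-kB and survival genes 5 were higher and 0 lower than in those cells, at a summed 35.0 against 42.1. The 5 were Traf1, Bcl2, Btg2, Ier5 and Cebpb. Btg2 had 50 UMIs and Cebpb 35 in 1 cell, and Cebpb was lower in the first run. Bcl2 was at 16.7 in the 28 cells with T and NK genes and 3.13 in the 92 with myeloid genes. Zeb2, at 25.5, made up most of the sum in Ptprc cells with Mrc1. Of 12 adhesion and migration genes 3 were higher and 0 lower, and of 3 lipid mediator genes 0 differed.

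Neighbouring genes were looked up at 5 gene clusters chosen by name. At the interleukin-1 receptor cluster (chr1:40074079-40551705), 6 of 7 compared genes were higher than in cells without Ptprc and 1, Il1r1, the receptor of interleukin-1 on stromal cells, was lower, at 0.780 (0.595 to 1.004) against 2.14. Against Ptprc cells with Mrc1, 4 of the 7 were higher. At the Ifi200 cluster (chr1:173350879-173942672), all 10 compared genes were higher than in cells without Ptprc, and 0 of 11 differed from Ptprc cells with Mrc1. At the SLAM and Fc receptor cluster (chr1:170958617-172590568), 16 of 50 genes were higher than in cells without Ptprc and 3 lower. Over all compared genes 12.6% were higher. The 16 included Fcgr2b, Fcgr3, Fcgr4, Fcer1g and 8 SLAM family genes, and the entry gene Slamf7, which lies there, was left out. Against Ptprc cells with Mrc1, 4 of 40 were higher (Cd244a, Ly9, Slamf1 and Slamf6) and 0 lower, where 6.46% of all compared genes were higher. Cd28, Ctla4 and Icos (chr1:60716800-61000320) were all 3 higher than in cells without Ptprc. Sirpb1a, Sirpb1b and Sirpb1c (chr3:15371653-15848528) were higher in both comparisons, but they are near-identical copies whose counts are uncertain, as are those of the Ifi200 genes.

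Cells of the class with and without Il1b were compared last. Il1b (chr2:129364570-129371139) had 338 UMIs in 33 cells, between 1 and 165 a cell with a median of 2, and 15 of the 33 cells had 1 UMI. In Ptprc cells with Mrc1 it had 240 UMIs in 66 cells. The 33 cells with Il1b were 15 of 99 in the first run, or 15.2% (8.74 to 23.8), and 18 of 45 in the second, or 40% (25.7 to 55.7). In the cells that had it, Il1b reached 4.32 UMIs per 10000 (2.85 to 6.29) among those of the first run and 24.9 (22.2 to 27.8) among those of the second, which included the cell of 165 UMIs.

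Of 1188 compared genes, 67 (5.64%) were higher and 95 (8%) lower in the 33 cells than in the other 111. Since Il1b is an entry gene, each of the 111 cells had been admitted by another entry gene, and Cytip was found in 25 of the 33 cells with 2 or more T and NK genes. The lower T and NK genes and the higher Fc receptor and macrophage genes are therefore partly fixed by the rule. Both are given as a description, since 31 of the 33 cells with Il1b held 2 or more myeloid genes. The lower genes included 9 of 13 T and NK genes, and Prkcq and Cd247 had 0 UMIs in the 33 cells against 152 and 89. Cobll1 and Hspa12b, which endothelial cells express, had 0 UMIs as well. Over both runs 4 of 5 Fc receptor genes and 7 of 13 macrophage genes were higher, among them Mertk. Fcer1g, one of these Fc receptor genes, was at 5.68 (4.44 to 7.17) against 0.597 in the second run but at 0.480 (0.0990 to 1.40) against 0.626 in the first. Ctss was higher within each run, at 10.2 (7.89 to 13.1) against 5.03 in the first and 15.3 (13.2 to 17.6) against 5.31 in the second.

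The genes with the highest ratios for Il1b are given by run. Il1rn, the antagonist of the interleukin-1 receptor, had 48 UMIs in 4 cells with Il1b and 1 UMI in those without, and 26 of the 48 were in 1 cell. Cebpb was at 6.08 (4.79 to 7.61) in cells with Il1b of the second run and at 0.597 (0.273 to 1.13) in those without. In the first run it had 0 UMIs in 15 cells with Il1b, which allows up to 0.480 UMIs per 10000 at 3 UMIs, and was at 0.139 in those without. S100a4, S100a6, Slc7a11, Btg2, Uck2 and St18 were the other genes named as higher. S100a6, a calcium-binding protein, was at 6.08 (4.79 to 7.61) against 0.995 in the second run, with 41 of its 76 UMIs in 1 cell, and at 0.640 against 0.325 in the first, with overlapping intervals. Slc7a11, the cystine transporter, had 51 of 69 UMIs in 1 cell, St18 54 of 81 and Btg2, a gene that slows division, 50 of 84. Of the 8 genes named as higher, 3 kept their direction in the first run and 8 in the second, while all 4 named as lower kept it in both. With the highest cell of each gene left out, 31 genes were higher in place of 67. Uck2, a uridine kinase, was higher in each run, at 1.44 (0.658 to 2.73) against 0.232 and 2.48 (1.69 to 3.52) against 0.265.

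**Figure D5:**
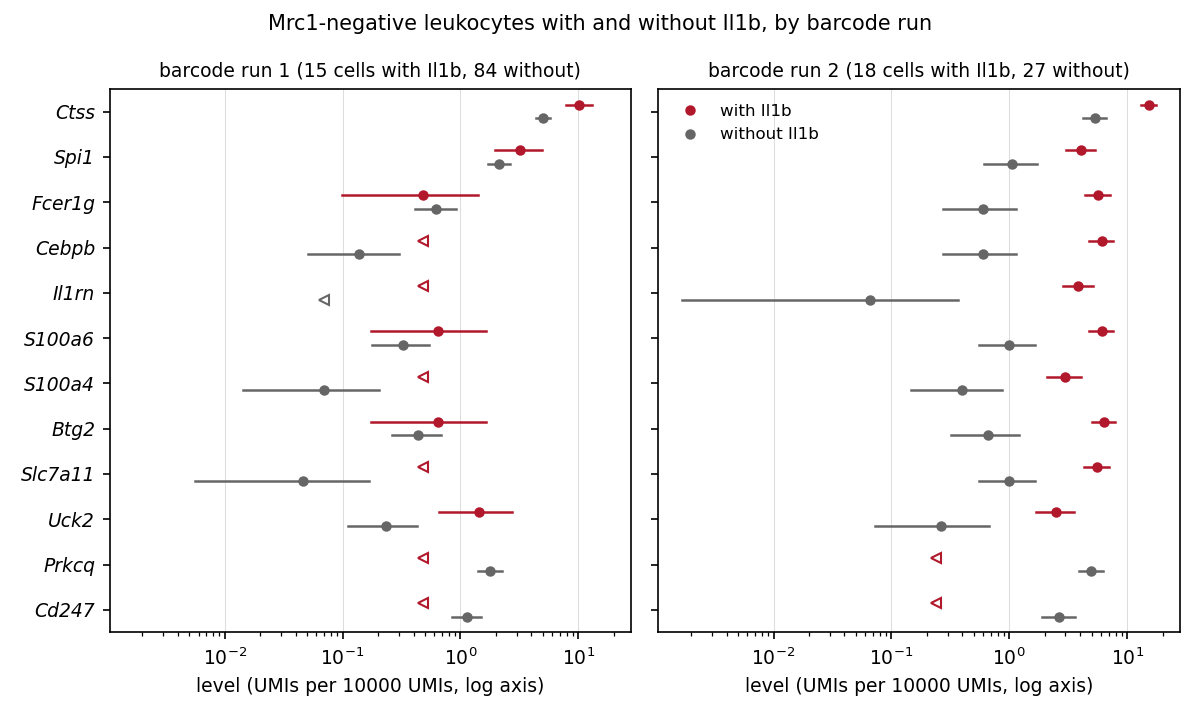
Levels (UMIs per 10000 UMIs, log axis) of 12 genes in Mrc1-negative leukocytes with and without Il1b in each barcode run, with 95% exact Poisson intervals and open triangles at 3 UMIs where a gene had none. Ctss sits higher with Il1b in both runs, Cebpb, Il1rn, S100a4 and Slc7a11 have no UMI with Il1b in the first run and sit above the cells without it in the second, and Prkcq and Cd247 have no UMI with Il1b in either.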

How the data were processed

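Single-cell libraries of mitral valves had been made with droplet 3' chemistry and processed by the authors with Cell Ranger 7.1.0 on mm10, per the submitters' processing notes, and with Seurat 4.3.0 and Harmony 0.1.1, per the study's methods. The deposited values were the natural log of 1 plus the UMIs of a gene per 10000 UMIs of the cell, as the authors normalised them. UMIs and totals were recovered from these values in Python 3.11.15 (numpy 2.4.6, pandas 2.3.3, scipy 1.17.1), and 100% of values above 0 were whole within 0.02. This step and the calls were tested on simulated data. No column of per-sample values was left unused, and 1 of the 3265 listed genes, with empty values, was left out.

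The 3 samples form 1 group, and since no barcode names its sample the matrix was 1 sample, so that no test was run. UMIs were summed over the cells of a group, with exact Poisson intervals, and ratios had exact conditional binomial intervals. Genes with 20 or more UMIs were called at 2-fold with intervals that did not overlap. For shares of cells, each cell was thinned at random to 2000 UMIs, which left out 16 of 144 Mrc1-negative leukocytes, 19 of 413 Ptprc cells with Mrc1 and 1220 of 15659 cells without Ptprc. The genes named were the 14 with the highest and the 8 with the lowest ratio of at least 50 UMIs in the higher group (8 and 4 of at least 30 UMIs for Il1b), besides genes of the lists. For the cells with T and NK genes they were the 12 each way of at least 20 UMIs. Predicted genes, with Gm or Rik symbols, were counted but not named, and a few other genes are not reported here. The rule for the cells, the lists and the comparisons were chosen with earlier results of these data known. No doublet caller was run. Positions are from GENCODE M21 and promoters from RefSeq, both on GRCm38. Figures were drawn with matplotlib 3.10.9.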

Additional observations from a re-analysis of the deposited data

How the results depend on the processing

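Of 103 counts and shares recomputed under other settings, 81 stayed within 1.5 times of the count or within the interval of the share and 22 did not. The share of Mrc1-negative leukocytes, 0.879%, was 0.708% with cells thinned before the rule, 0.696% in the first barcode run, 2.08% in the second, 0.482% with at least 2 entry genes required and 0.690% without cells that held Egfl7. With cells thinned before the rule, 236 genes were lower than in cells without Ptprc, 51 were higher and 44 lower than in Ptprc cells with Mrc1, and 15 were higher and 22 lower in cells with Il1b. In the first run 21 were higher and 47 lower with Il1b, and in the second 55 were lower. At 3-fold, 76 genes were higher and 51 lower than in Ptprc cells with Mrc1 and 37 were higher with Il1b, and with at least 50 UMIs a gene 42 were. The mean over cells, which has no interval and so calls more genes by construction, gave 976 lower than in cells without Ptprc, 193 lower than in Ptprc cells with Mrc1, and 104 higher and 203 lower with Il1b.

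Settings chosen after seeing the data left out the highest cell of each gene, the barcodes found in both runs, or the cells with T and NK genes. The first gave 288 genes higher and 479 lower than in cells without Ptprc, 95 higher and 131 lower than in Ptprc cells with Mrc1, and 31 higher with Il1b. Of 900 log2 ratios of the 56 named genes, with a pseudocount added to both groups, 806 stayed within the interval of the reported value, 86 moved and 8 turned sign. With cells thinned before the rule, Fabp4 against Ptprc cells with Mrc1 became -1.38, from 0 UMIs against 3. At the same setting St18 with Il1b against without became -1.32, from 2 UMIs against 20. In the first run Cebpb was at -0.91, S100a4 at -0.021 and St18 at -1.18, the first 2 from 0 UMIs with Il1b, and in the second run Adam23 was at -0.34. Without the cells with T and NK genes Icos was at -1.28, from 0 UMIs, and Prkcq at -0.33. The cause was not tested, except that thinning and single runs leave fewer UMIs or cells. No paired analysis was possible because replicates are not marked on any barcode, and no replicate could be left out for the same reason. Depth limits low genes, since 3 UMIs over all 144 cells are 0.0390 UMIs per 10000.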
